A study of Danio rerio with 6 samples.

Results

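The hyaluronan matrix genes described here are has1, has2, hapln1a, hapln1b, vcana and vcanb, measured as RNA in adult zebrafish (Danio rerio) hearts. These 6 genes were picked by name, with earlier results of these data known, among the 33737 genes of the authors' deposited comparison table. Of the 6, 5 were joined by identifier to the table of FPKM (fragments per length of transcript and size of library), which holds 32105 genes. vcana (ENSDARG00000078680) has no row under that identifier in the FPKM table, so the comparison table alone covers it. The study compared 3 wild-type samples (WT) with 3 samples carrying Tg(hsp70l:DN-MAML), all of strain TU-AB and aged 6 to 12 months. DN-MAML is a dominant-negative form of Mastermind that blocks transcription driven by Notch, and the heat-inducible hsp70l promoter expresses it in any cell type that responds to heat. Every fish of both groups had part of its heart amputated and was heat-shocked at 38 C for 1 h each day, and hearts were taken 5 days after amputation. The contrast addresses which genes lie downstream of Notch in the regenerating heart. The labels do not say whether a sample is 1 heart or a pool, and a p-value here reflects only how far these samples spread.

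Hyaluronan is a long sugar polymer that swells the extracellular matrix. Hyaluronan synthases (Has) make it at the plasma membrane from UDP-sugars and push it out of the cell. Versican, a large chondroitin sulfate proteoglycan, binds hyaluronan through its head domain, and the link proteins (Hapln) clamp that bond. In the embryonic heart this complex fills the cardiac jelly between myocardium and endocardium. In zebrafish, hyaluronan and its receptor Hmmr have been linked to the epicardium during regeneration, and hapln1-expressing cells have been described as an epicardial subpopulation. In the RefSeq gene table (assembly GRCz12tu), hapln1a is the next protein-coding gene to vcana, and hapln1b the next to vcanb, with an edil3 gene on the far side of each link gene. has1 and has2 lie on the same chromosome but are not neighbours.

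FPKM above 0 were listed for 22976 to 24094 genes in a sample, and the depth per sample is unknown. The Notch target her6 had 35.5 to 39.0 FPKM in WT and 16.8 to 21.4 in DN-MAML, and passed the test (limma, adjusted p = 0.0377). The transgene is not told apart from endogenous genes, and hsp70l itself ranged from 2.72 FPKM (DN-MAML replicate 2) to 73.8 (WT replicate 3). All 7 marker lists for cell types of the heart were detected, with no marker matched in the FPKM table at 0 in any sample. The summed cardiomyocyte list was 39112 to 46682 FPKM in WT and 32858 to 41069 in DN-MAML, so cardiac tissue was present in all 6 libraries.

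The link protein gene hapln1a was the member that differed most between the groups. WT replicates 1, 2 and 3 had 33.67, 21.93 and 23.87 FPKM of hapln1a, while DN-MAML replicates 1, 2 and 3 had 14.14, 17.72 and 11.44. Every DN-MAML sample lay below every WT sample, and WT replicate 1 was the highest of the 6. The WT mean was 26.5 ± 6.29 FPKM and the DN-MAML mean 14.4 ± 3.15 (SD, n = 3). On the scale log2(FPKM + 0.5) the difference was -0.85 (SE 0.21, 95% interval -1.33 to -0.37). It did not pass limma's test over 16556 genes (adjusted p = 0.196, Benjamini-Hochberg). The authors' deposited table calls hapln1a lower in DN-MAML at the same 0.05 threshold, with a log2 change of -0.77 (SE 0.23) and an adjusted p of 0.0228. The call therefore rests on the source of the test, while the direction and size were alike in both. Both sources start from the same 6 samples, so this likeness is not independent support. In bulk hearts, fewer cells that make a transcript and less of it per cell cannot be told apart.

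Its paralog hapln1b did not share this difference. hapln1b had 10.54, 17.66 and 14.23 FPKM in the WT replicates, and 15.16, 11.96 and 15.70 FPKM in the DN-MAML replicates. The groups overlapped throughout, and WT replicate 1, highest for hapln1a, was lowest for hapln1b. The WT mean was 14.1 ± 3.56 FPKM and the DN-MAML mean 14.3 ± 2.02 (SD, n = 3), a log2 difference of 0.03 (SE 0.19, 95% interval -0.42 to 0.48; limma, adjusted p = 0.959). The sign of this small value turned negative without WT replicate 1 (-0.16). The authors' deposited table gives hapln1b a log2 change of -0.04 (SE 0.17) with an adjusted p of 0.939.

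**Figure D1:**
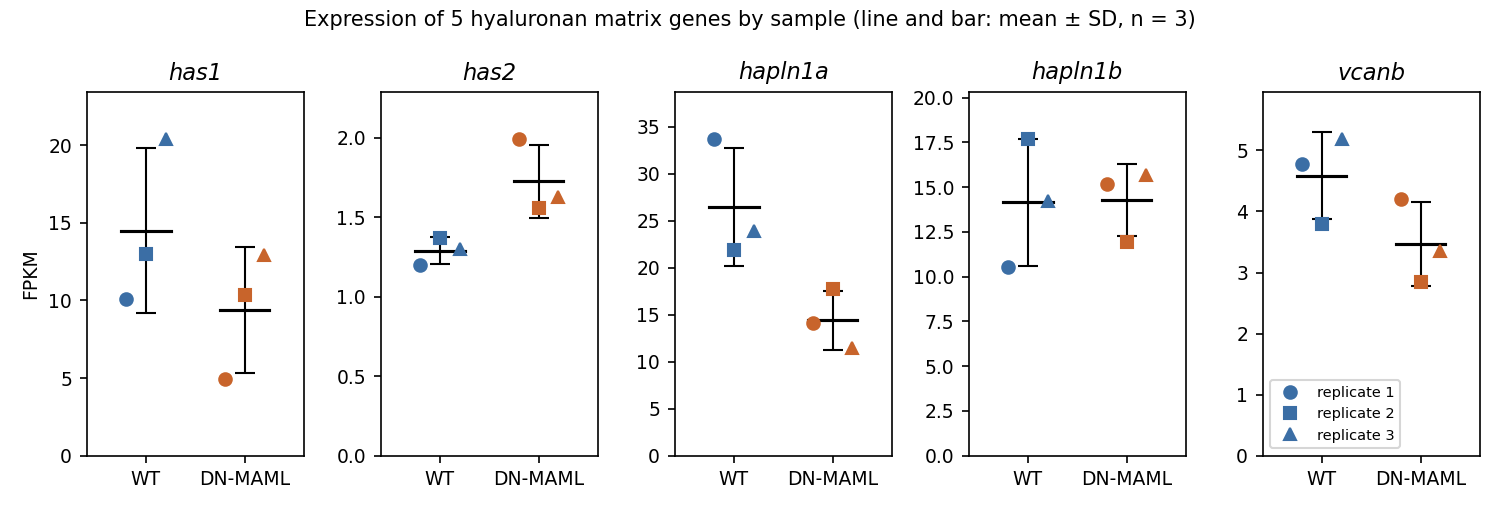
FPKM (y axis, from 0 in each panel) of has1, has2, hapln1a, hapln1b and vcanb in WT and DN-MAML samples, with symbols for the replicates and lines for mean ± SD (n = 3). hapln1a (11.44 to 17.72 in DN-MAML, 21.93 to 33.67 in WT) and has2 (1.56 to 1.99 against 1.20 to 1.37) are the genes whose groups do not overlap.

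Taken as a pair, the link genes separated the groups with little spread. hapln1a also separated them on its own, and hapln1b did not. The summed FPKM of hapln1a and hapln1b was 44.21, 39.59 and 38.10 in the WT replicates and 29.30, 29.68 and 27.14 in the DN-MAML replicates. The lowest WT sum and the highest DN-MAML sum were 8.42 FPKM apart, and WT replicate 1 stood out less in the sum than in hapln1a alone. The geometric means were 40.6 FPKM in WT and 28.7 in DN-MAML, a log2 difference of -0.50. The exact two-sided permutation test gave p = 0.1, the smallest that 3 against 3 samples allow, and 0.25 after adjustment over the 5 sums and ratios computed. These sums and ratios were chosen after the values were seen.

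The balance within the pair also differed among samples. The ratio of hapln1a to hapln1b, which does not depend on how libraries were scaled, was 3.19, 1.24 and 1.68 in the WT replicates. It was 0.93, 1.48 and 0.73 in the DN-MAML replicates. hapln1a was the more abundant link gene in all 3 WT samples and in DN-MAML replicate 2, whereas hapln1b was ahead in DN-MAML replicates 1 and 3. The groups overlapped (exact two-sided permutation p = 0.2, adjusted p = 0.333). The smallest p that 3 against 3 samples allow is 0.1, so this test could not establish a shift of balance between the genotypes.

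Among the synthases, has1 was the more abundant and the more variable. has1 had 10.11, 13.01 and 20.36 FPKM in the WT replicates, and 4.94, 10.35 and 12.90 FPKM in the DN-MAML replicates. The highest sample was WT replicate 3 and the lowest was DN-MAML replicate 1, 4.12-fold apart, and the middle samples of the groups overlapped. The log2 difference was -0.64 (SE 0.41, 95% interval -1.64 to 0.36) and did not pass (limma, adjusted p = 0.539). Without DN-MAML replicate 1 it was -0.26, and without WT replicate 3 it was -0.37. Leaving out any other single sample gave -0.69 to -0.91. The authors' deposited table gives -0.60 (SE 0.31) with an adjusted p of 0.316.

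has2, the synthase needed for cardiac jelly in the mouse embryo, was expressed at a low and steady level. It had 1.20, 1.37 and 1.30 FPKM in the WT replicates, and 1.99, 1.56 and 1.63 FPKM in the DN-MAML replicates. Every DN-MAML sample lay above every WT sample, and the SD among WT samples was 6.62% of their mean. The log2 difference was 0.31 (SE 0.14, 95% interval -0.01 to 0.64), which understates the change of so low a gene because of the added 0.5. It did not pass (limma, adjusted p = 0.395), nor did the value of 0.36 (SE 0.17) in the authors' deposited table (adjusted p = 0.238).

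has1 and has2 thus lay on opposite sides, and their ratio within each library separated the groups. has2 also separated them on its own, and has1 did not, so the ratio also reflects the difference of has2. The ratio was chosen after the values were seen. has1 exceeded has2 by 8.43-, 9.50- and 15.7-fold in the WT replicates and by 2.48-, 6.63- and 7.91-fold in the DN-MAML replicates. The highest DN-MAML ratio (replicate 3) was close to the lowest WT ratio (replicate 1). The geometric means were 10.8 in WT and 5.07 in DN-MAML (exact two-sided permutation p = 0.1, the smallest possible here; adjusted p = 0.25). has1 was the more abundant synthase in every sample. The summed FPKM of has1 and has2, which overlapped between groups, was 11.3 to 21.7 in WT and 6.93 to 14.5 in DN-MAML (exact two-sided permutation p = 0.5, adjusted p = 0.5).

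**Figure D2:**
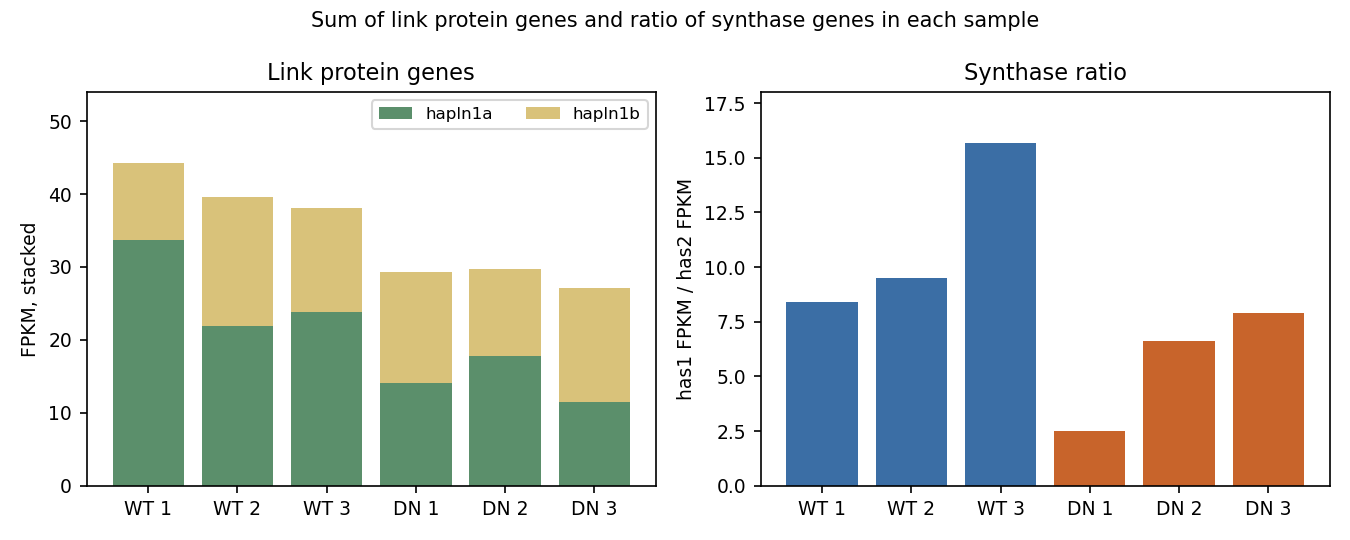
Left, FPKM of hapln1a and hapln1b stacked for each sample, and right, has1 FPKM divided by has2 FPKM, both from 0 (WT 1 to 3 and DN 1 to 3 are the WT and DN-MAML replicates). The stacked sums are 38.10 to 44.21 in WT and 27.14 to 29.68 in DN-MAML, and the ratios 8.43 to 15.7 and 2.48 to 7.91.

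Of the versican genes, vcanb is the one with an FPKM row of its own in the join. vcanb had 4.78, 3.80 and 5.18 FPKM in the WT replicates, and 4.20, 2.84 and 3.36 FPKM in the DN-MAML replicates. DN-MAML replicate 1 lay above WT replicate 2, so the groups overlapped at that point, and the other DN-MAML samples were below all WT samples. The log2 difference was -0.36 (SE 0.17, 95% interval -0.75 to 0.02; limma, adjusted p = 0.398). A log2 change of -0.43 (SE 0.17) with an adjusted p of 0.134 stands in the authors' deposited table. For vcana the authors' deposited table gives a log2 change of -0.62 (SE 0.39) with an adjusted p of 0.431, at a mean normalized count of 81.1, the lowest of the 6 members. The highest was 4793, for hapln1a, and vcanb had 1303 in the authors' deposited table.

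A second identifier, ENSDARG00000103515, is named vcana in the gene name table and has FPKM values but no row in the comparison table. It had 0.42, 0.20 and 0.39 FPKM in the WT replicates and 0.22, 0.35 and 0.11 FPKM in the DN-MAML replicates. These values overlapped and fell under the minimum mean of 0.5 FPKM, so they were not tested, and it was not established that both identifiers count the same transcripts. On the FPKM scale, which accounts for gene length, vcanb was above this identifier in every sample.

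The order of levels was hapln1a, hapln1b and has1, then vcanb, then has2, when genes were ranked by mean FPKM over the 6 samples. hapln1a stood at the 81.9th percentile of the genes tested, hapln1b at the 75.3rd, has1 at the 71.4th, vcanb at the 41.1st and has2 at the 18.3rd. In WT, hapln1a (21.93 to 33.67 FPKM) lay above hapln1b (10.54 to 17.66) and has1 (10.11 to 20.36), which did not differ beyond their spread. In DN-MAML, the ranges of hapln1a (11.44 to 17.72 FPKM) and hapln1b (11.96 to 15.70) overlapped, and so did those of hapln1b and has1 (4.94 to 12.90). vcanb and has2 did not overlap with any other member in either group.

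Counted together, the members gave few calls. They were chosen with earlier results of these data known, so setting their counts beside all genes is not an unbiased comparison. limma called 0 of the 5 tested, where 0.0966% of all genes tested were called, and 1 of the 5 (hapln1a) had an unadjusted p under 0.05, as did 13.2% of all genes tested. The authors' deposited table calls 1 of 6 lower, as it does 2.27% of all genes with an adjusted p, and 0 of 6 higher, as it does 2.11%. By samples, hapln1a was the 1 member of 5 that was lower without overlap, as were 8.98% of all genes tested, and has2 the 1 that was higher, as were 9.83%. Of the 5, 3 had a negative and 2 a positive log2 difference, with a median log2 difference of -0.36, against 0.03 over all genes tested.

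**Figure D3:**
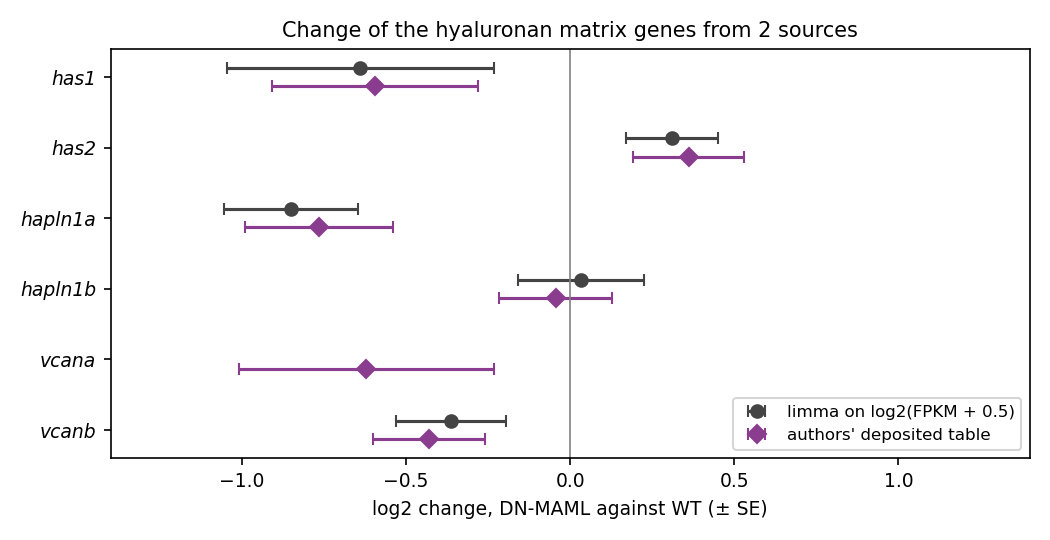
Log2 change of each member, DN-MAML against WT (x axis), from limma on log2(FPKM + 0.5) (circles) and from the authors' deposited table (diamonds), with bars for ± SE. hapln1a lies lowest in both (-0.85 and -0.77), has2 is on the higher side in both (0.31 and 0.36), and vcana has a value from the authors' deposited table alone.

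Because hapln1 marks epicardial cells in zebrafish, the levels of 5 epicardial marker genes (tcf21, tbx18, wt1a, wt1b and aldh1a2) were set beside hapln1a. Their summed FPKM was 317, 202 and 209 in the WT replicates and 285, 282 and 252 in the DN-MAML replicates. The groups overlapped, all 5 markers were on the higher side in DN-MAML, and none passed limma. WT replicate 1 was the highest sample for both the epicardial sum and hapln1a. The sum was made up mostly of aldh1a2 (126 to 178 FPKM in WT and 151 to 174 in DN-MAML), so ratios to it mainly reflect that gene's level. Ratios to the other markers without aldh1a2 were not computed, so any likeness among WT samples was seen only with aldh1a2 in the sum.

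Relative to that sum, hapln1a was closely alike in the 3 WT samples and lower in all DN-MAML samples. hapln1a amounted to 10.6%, 10.9% and 11.4% of the epicardial sum in the WT replicates, and to 4.96%, 6.28% and 4.54% in the DN-MAML replicates. The SD of this share was 3.88% of its mean in WT and 17.3% in DN-MAML, where that of hapln1a itself was 23.8% and 21.8%. The mean share in DN-MAML was 0.479 of that in WT (exact two-sided permutation p = 0.1, the smallest possible). hapln1a was lower without overlap on its own, so the share also reflects that difference. The epicardial list was 1 of 7 marker lists to which each of 5 members was related after the values were seen. Of those 35 ratios, 12 did not overlap between groups, 7 lower and 5 higher in DN-MAML. These ratios share members and sums, so they are not independent, and the p above was not adjusted over them. How often such ratios separate the groups for all genes was not computed, so the count cannot be judged. In WT, 2 of the 35 ratios had a smaller relative SD, has2 over the cardiomyocyte sum (2.25%) and hapln1b over the erythroid sum (3.07%).

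**Figure D4:**
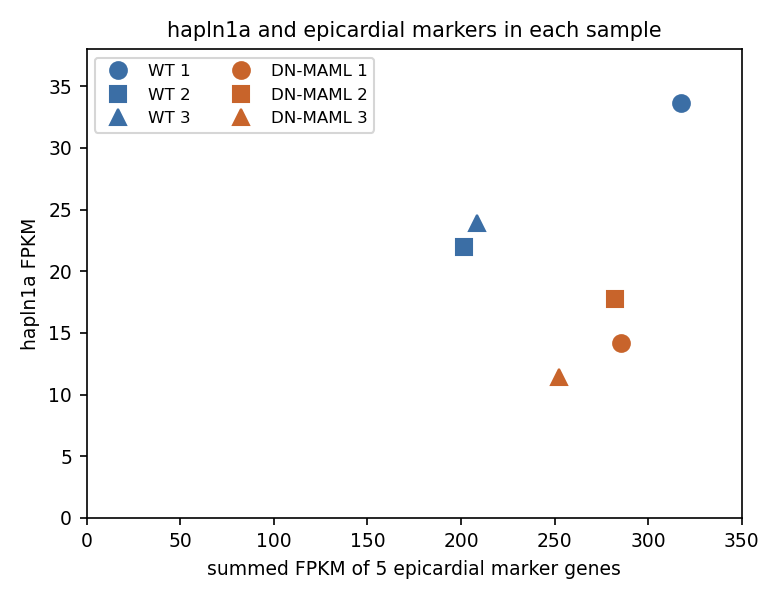
hapln1a FPKM (y axis) against the summed FPKM of 5 epicardial marker genes (x axis) in each of the 6 samples, both axes from 0. The WT samples (circle, square and triangle for replicates 1, 2 and 3) lie near one line through the origin at 10.6% to 11.4%, and the DN-MAML samples lie below it at 4.54% to 6.28%.

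The other markers placed this result in its setting. hapln1a was also lower without overlap relative to the cardiomyocyte, endothelial and leukocyte sums, and its groups overlapped relative to the fibroblast, smooth muscle and erythroid sums. The FPKM of hapln1a was itself lower without overlap, so these ratios also reflect that difference. The smooth muscle and mural list (5 of 5 matched) had sums of 232 to 282 FPKM in DN-MAML and 361 to 459 in WT, without overlap, but its members did not all lie on 1 side. The sum was made up mostly of acta2 (49.2 to 62.6 FPKM in DN-MAML, 99.9 to 181 in WT) and tagln (164 to 201 and 208 to 332), which together with notch3 had negative log2 differences, while myh11a and pdgfrb had positive ones (0.14 and 0.31). The median log2 difference of that list was -0.18, and limma called none of the 5. The erythroid list (5 of 5 genes matched) had sums of 11271 to 16816 FPKM in DN-MAML and 18305 to 32399 in WT, also without overlap, with none called by limma. The leukocyte list (4 of 5 matched) overlapped at 113 to 136 against 85.7 to 119. The fibroblast list (6 of 7 matched) was at 661 to 1347 FPKM in WT and 803 to 1262 in DN-MAML, and the endothelial list (6 of 7 matched) at 199 to 229 and 207 to 264. Unlike limma, the authors' deposited table calls some markers lower. They are acta2 (log2 change -1.31, adjusted p = 2.68e-07), ba1 (-1.12, 5.33e-05), ba1l (-1.05, 2.51e-04) and an hbaa1 identifier (-1.11, 1.61e-04). It also calls vmhc (-0.71, 3.89e-04) and postnb (-0.55, 0.0379) lower, the latter a fibroblast marker without FPKM. The other markers it holds were not called. The part of cell composition in the difference of hapln1a was not tested.

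The other members shared this pattern only in part, vcanb and has1 for some of the same lists. vcanb was lower without overlap relative to the epicardial sum, at 1.51%, 1.88% and 2.48% in the WT replicates and 1.47%, 1.01% and 1.33% in the DN-MAML replicates. It was also lower without overlap relative to the leukocyte sum. hapln1b and has2 overlapped between groups relative to the epicardial sum. has2 was higher without overlap relative to the cardiomyocyte, smooth muscle and erythroid sums, and hapln1b relative to the smooth muscle and erythroid sums. The smooth muscle and erythroid sums were themselves lower without overlap in DN-MAML, so ratios to them also reflect that difference. The FPKM of hapln1b itself overlapped between groups, while that of has2 was itself higher without overlap. Relative to the epicardial sum, has1 overlapped as well, from 3.19% to 9.76% in WT and from 1.73% to 5.12% in DN-MAML. It was lower without overlap relative to the endothelial sum alone.

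The genes whose levels most resembled each member were found by Pearson's r on log2(FPKM + 0.5), among names that are not clone-style. They are given as a description only, with r computed over 6 samples and 16556 genes. For hapln1a they were tspan12 (r = 0.990), a tetraspanin, IGFBP3 (0.989), an insulin-like growth factor binding protein, and CGREF1 (0.987). IGFBP3 had 29.5, 21.7 and 22.7 FPKM in the WT replicates and 18.1, 20.3 and 15.0 in the DN-MAML replicates, the same order of samples as hapln1a. For hapln1b they were nus1 (r = 0.992), the small heat shock protein gene CRYAB (0.975) and rem1 (0.974). CRYAB ranged from 3.04 FPKM in WT replicate 1 to 24.8 in WT replicate 2, the samples where hapln1b was lowest and highest.

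For has1 the nearest were usp13 (r = 0.998), a deubiquitinase, rassf2b (0.991) and the glycogen phosphorylase pygl (0.985). pygl had 3.82, 4.85 and 8.94 FPKM in the WT replicates and 0.68, 3.86 and 4.50 in the DN-MAML replicates. For vcanb they were RBM12 (0.996), pcdh1g3 (0.992) and ugt1b1 (0.988), and for has2 mrm1 (0.979), spcs2 (0.976) and ash1l (0.976). To reach the genes named for has2, 6 genes with clone-style names were passed over. None of the genes named for their likeness to a member passed limma (lowest adjusted p = 0.252, for CGREF1).

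The wider hyaluronan pathway was described with a list of 60 genes in 8 roles, of which 55 were matched and 37 identifiers reached the minimum level for the test. The symbols hyal2a, hyal2b, adamts4, itih3a and itih3b were not matched. limma called 0 of the 37. An unadjusted p under 0.05 was found for 2 of the 37 (hapln3 and cd44b), a smaller share than the 13.2% of all genes tested. The list split evenly, with 19 negative and 18 positive log2 differences and a median of -0.03 against 0.03 over all genes. The authors' deposited table calls 4 of the list's 43 identifiers with an adjusted p lower and 1 higher, where it calls 2.27% of all genes lower and 2.11% higher. The list, too, was chosen with earlier results known, so these counts are not an unbiased comparison with all genes.

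The other link protein gene expressed in the heart, hapln3, stood on the same side as hapln1a. hapln3 had 4.87, 5.29 and 4.52 FPKM in the WT replicates, and 3.72, 3.06 and 2.99 FPKM in the DN-MAML replicates. All DN-MAML samples were below all WT samples (log2 difference -0.52, SE 0.12; limma, adjusted p = 0.178). The authors' deposited table calls hapln3 lower (-0.56, adjusted p = 0.0294). hapln2 was listed at 0 in every sample, hapln4 was at most 0.03 FPKM, and the synthase gene has3 was between 0.20 and 0.30 FPKM in all samples.

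Among the other hyalectans, the versican relatives that also bind hyaluronan, aggrecan was present at low levels. acana had 0.46 to 0.75 FPKM in WT and 0.38 to 0.76 in DN-MAML. acanb had 0.34, 0.45 and 0.22 FPKM in the WT replicates and 0.14, 0.13 and 0.12 in the DN-MAML replicates. It was under the minimum for limma, and the authors' deposited table calls it lower (log2 change -1.02, adjusted p = 0.0272).

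The hyaluronan receptor gene cd44b stood on the other side. cd44b, whose mammalian counterpart is the main cell surface receptor for hyaluronan on leukocytes and mesenchyme, had 2.77, 1.96 and 2.63 FPKM in the WT replicates and 4.09, 3.81 and 4.19 FPKM in the DN-MAML replicates. The groups did not overlap (log2 difference 0.63, SE 0.14; limma, adjusted p = 0.169), and the authors' deposited table calls it higher (0.59, adjusted p = 0.00163). The leukocyte markers with FPKM (ptprc, coro1a, lcp1 and mpx) were also on the higher side in DN-MAML, 4 of 4, and their part in cd44b was not tested. A second lcp1 identifier, without FPKM, lay on the other side in the authors' deposited table (log2 change -0.07, adjusted p = 0.915). The receptors laynb and stab1, the most abundant of their role, had log2 differences of 0.04 and 0.08 (limma, adjusted p = 0.929 and 0.854). The receptor gene hmmr had 1.98 to 3.10 FPKM in WT and 1.78 to 2.01 in DN-MAML, which overlapped. Its log2 difference was -0.28 (limma, adjusted p = 0.491), and the authors' deposited table gives -0.42 (adjusted p = 0.253).

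**Figure D5:**
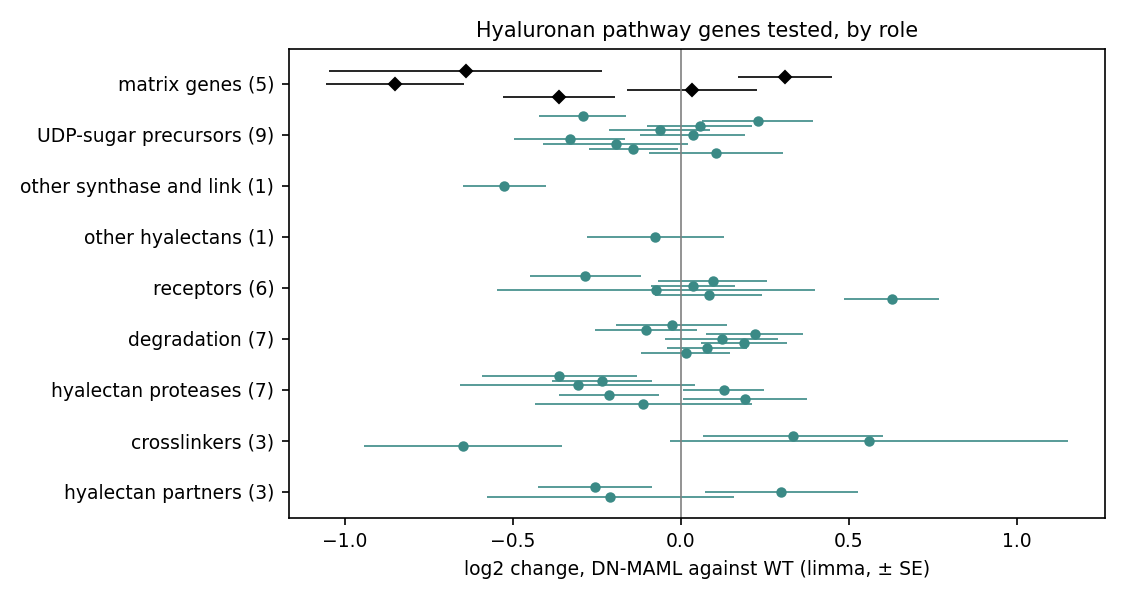
Log2 difference of each gene tested, DN-MAML against WT (x axis, limma, bars ± SE), with the 5 matrix genes on top (diamonds) and the pathway list below by role (circles), numbers of genes in brackets. The pathway genes lie on both sides of 0, with hapln3 at -0.52 and cd44b at 0.63.

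Among the matched list genes for precursor supply and breakdown there was no call in either source. UDP-glucose pyrophosphorylase genes ugp2a (52.1 to 81.7 FPKM over all samples) and ugp2b (12.5 to 20.5), which feed the pathway, had log2 differences of -0.29 and 0.23 (limma, adjusted p = 0.389 and 0.577). For breakdown, the lysosomal hexosaminidase gene hexb had -0.03 and cemip (named BX897684.1), whose mammalian counterpart takes part in hyaluronan depolymerization, 0.22 (adjusted p = 0.961 and 0.538). The list symbols hyal2a and hyal2b matched no name, so the copies of the hyaluronidase gene HYAL2 were left out of the list's counts. HYAL2 (1 of 3), named here after its values were seen, was lower in the authors' deposited table (log2 change -1.61, adjusted p = 2.59e-06). For the other copies the authors' deposited table gives 0.94 (adjusted p = 0.0764) for HYAL2 (3 of 3) and -0.10 (adjusted p = 0.797) for hyal2, neither of them called. The FPKM of HYAL2 (1 of 3), at 5.36, 7.95 and 6.62 in the WT replicates and 8.29, 4.50 and 5.11 in the DN-MAML replicates, overlapped, and the sources were not reconciled.

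Proteases that cut versican and its relatives included adamts15a, at 25.9 to 40.7 FPKM, and adamts8a, a member of the same family. adamts8a had 9.75, 18.20 and 17.82 FPKM in the WT replicates and 11.97, 11.26 and 10.79 in the DN-MAML replicates, so WT replicate 1 lay with the DN-MAML samples. Its log2 difference was -0.36 (limma, adjusted p = 0.532) with all samples and -0.65 (adjusted p = 0.0445) without WT replicate 1, the 1 of 37 pathway genes called in that fit, where 1.09% of all genes were called. adamts15a had -0.23 (adjusted p = 0.529). ADAMTS20 has no FPKM row, and the authors' deposited table calls it lower (-1.44, adjusted p = 3.46e-04).

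The crosslinkers and partners of the matrix gave mixed values. tnfaip6, which transfers heavy chains onto hyaluronan, had 37.38, 21.12 and 37.96 FPKM in the WT replicates and 26.20, 19.76 and 14.63 FPKM in the DN-MAML replicates (log2 difference -0.65, SE 0.29; limma, adjusted p = 0.408). The pentraxin ptx3a, which in mammals joins this crosslinked matrix, ranged from 11.4 to 33.1 FPKM in WT and from 17.1 to 59.1 in DN-MAML (adjusted p = 0.720). The fibulin genes fbln2 and FBLN1, whose products bind hyalectans, had log2 differences of -0.26 and -0.21 (adjusted p = 0.543 and 0.838). The tenascin gene tnr was under the minimum for limma, and the authors' deposited table calls it lower (-0.68, adjusted p = 0.0367).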

How the data were processed

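RNA was sequenced from 6 heart samples, and groups and replicate numbers came from the sample titles. The submitters' processing notes name DESeq2, STAR, cutadapt, FastQC and featureCounts without versions or roles. The sources used here give no genome build, annotation or tool for the FPKM. The authors deposited FPKM to 0.01, which sum to 852778 to 914709 per sample. The deposited comparison table holds, per the file headers, a mean normalized count signal, a log2 change with its standard error on the log2 scale, a score, and unadjusted and adjusted p-values. The score equals the log2 change over its SE. Among 644 genes called by the authors with FPKM, 633 had the same sign in both, so positive means higher in DN-MAML. The tables share 24667 identifiers; the FPKM table holds another 7438 and the comparison table another 9070.

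Genes with a mean of at least 0.5 FPKM (16556) were fitted as log2(FPKM + 0.5) in limma 3.58.1 (R 4.3.3) with trended, robust variances and no block, Benjamini-Hochberg adjustment over all genes and a threshold of 0.05. Tables were handled in Python 3.11.15 with pandas 2.3.3. No read counts per sample were used, so depth is unknown and counting intervals are left out. The fit was first tested on simulated data. There it called 12% of genes changed by 0.5 on the log2 scale, 54% of those changed by 1 and 88% of those changed by 2. It called 0 genes in a run without any change, and 4 of the 16356 unchanged genes in the run with changed genes. The simulated noise was independent between genes, so deviations that many genes share within a sample were not simulated.

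The members and lists were chosen with earlier results of these data known. List symbols were matched ignoring case, first in the comparison table, then in the gene name table, a rule set after the values were seen. Pathway genes named are the 2 with the highest mean FPKM of each role and those past the threshold in either source. The receptor gene hmmr was added because the background names it. For each member the 3 genes with the highest r and a name that is not clone-style were taken. Alternatives were the pseudocount, the filter, the scaling, the variance estimate, a replicate block and leaving out each sample.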

Additional observations from a re-analysis of the deposited data

How the results depend on the processing

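No member passed limma under any of 14 alternatives (13 for has2, which a minimum mean of 2 FPKM removes). The log2 difference of hapln1a stayed between -1.005 and -0.67 (adjusted p = 0.128 to 0.418), has1 between -0.91 and -0.26, has2 between 0.23 and 0.39 and vcanb between -0.49 and -0.25. That of hapln1b changed sign in 3 fits that left out a sample, with a range of -0.16 to 0.203 (-0.16 without WT replicate 1); the cause was not tested. Of all genes, 16 were called, 9 with a minimum mean of 2 FPKM (12594 genes tested), 10 after quantile normalization, and 4 to 180 without 1 sample (180 without WT replicate 1, 4 without WT replicate 3 or DN-MAML replicate 2, 6 without DN-MAML replicate 3). The pathway list had 0 to 1 calls without 1 sample (adamts8a, without WT replicate 1). With the replicate block limma called 0 genes, and 2789 had an unadjusted p under 0.05. The block was not the main fit, since the labels do not say that equal replicate numbers share an animal, clutch or day. Deviations of same-numbered samples had correlations of 0.208, -0.026 and 0.140. The same-numbered sample was the best match for WT replicates 1 and 3, while WT replicate 2 correlated best with DN-MAML replicate 3 (0.056). The block changed no call of a member, but it moved has1 the most. The SE of has1 went from 0.41 to 0.14 and its limma adjusted p from 0.539 to 0.182. With the block, limma's adjusted p was 0.190 for hapln1a, 0.255 for vcanb, 0.364 for has2 and 0.953 for hapln1b. No scaling moved the median of all genes by over 0.1. With 3 samples a group and unknown depth, a p that misses the threshold for has2 or vcanb does not show that the groups were alike.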
